A study of Mus musculus with 4 samples.

Results

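Glutathione and thioredoxin are the electron donors of the main enzyme systems that remove peroxides and reactive electrophiles from cells. Glutathione is built in steps by glutamate cysteine ligase (Gclc and Gclm) and glutathione synthetase (Gss), is used by glutathione peroxidases and glutathione S-transferases, and is returned to its reduced form by glutathione reductase (Gsr). Thioredoxins are kept reduced by thioredoxin reductases, pass electrons to peroxiredoxins, and are bound and inhibited by Txnip. In brain, astrocytes hold much of the glutathione and supply its precursors to neurons, and the transcription factor Nrf2 drives many of these genes. The genes described here are those of both systems together with the superoxide dismutases, catalase (Cat), the quinone reductase Nqo1 and the haem oxygenases Hmox1 and Hmox2, chosen by their names on the array. The name rule found 119 of 41174 probes, which stood for 73 genes. Of these probes, 100 were well above background in the mutant or the control channel of all 4 arrays, and 64 of 18025 genes tested were antioxidant genes. Of the 100 probes, 99 were above background in both channels of all 4 arrays, and the other was a second probe of Txnip.

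RNA came from whole cerebella of mice at postnatal day 30 on a mixed strain background. Dicer mutants carried mGfap-Cre and Dicer flox/flox, so that a Cre recombinase under mouse Gfap sequences acted on 2 floxed alleles of the gene whose enzyme makes mature microRNAs. Control littermates carried mGfap-Cre and Dicer +/flox, so both groups carried Cre and a floxed allele. The 4 mutants and 4 controls formed 4 littermate pairs, each hybridised on 1 two-colour array with the dyes swapped between pairs. By its title, the series asks what loss of Dicer in astroglia does to neurons. Each ratio is the log2 of mutant over control within a pair, and its mean and SD are over the pairs (n = 4). Levels are normalized log2 intensities of 1 probe. Adjusted p-values are from limma across the 18025 genes, and those under 0.05 were taken as calls.

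All 10 Purkinje and all 12 granule neuron markers were tested in this tissue, and none was called. Between 26398 and 28907 probes per array were above background in the mutant channel, against 26291 to 27718 in the control channel, and no spot was saturated. Choroid plexus and erythroid transcripts varied in sign between pairs, and none was called. The pair medians were 0.09, -0.58, 0.40 and 0.52 for 12 choroid plexus genes, and 0.44, -0.70, 0.42 and -0.10 for 5 erythroid genes. In whole tissue, fewer cells of a type and less RNA per cell cannot be told apart.

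Only 2 antioxidant genes passed the test. Txnip, the thioredoxin inhibitor, was higher in mutants, so that 1 of 64 genes was called higher, beside 0.588% of all genes tested. Gstm3, a mu-class glutathione S-transferase, was lower, so that 1 of 64 was called lower, beside 0.444% of all genes. With counts this small, the share of antioxidant genes called was not read as different from that of all genes. The median ratio over the 64 genes was -0.04, against 0.002 over all genes. Ratios were below 0 for 43 of the 64 genes (67.2%), against 49.1% of all genes. In all 4 pairs alike, 17 of the 64 genes were below 0, beside 7.32% of all genes, and 4 were above 0, beside 7.75% of all genes. Without adjustment, 14 of the 64 genes were lower at p under 0.05 by limma, beside 4.51% of all genes, and 3 were higher, beside 4.88% of all genes, which is close to that background. The median over the 64 genes was below 0 in each pair, at -0.09, -0.004, -0.09 and -0.03. Mutants were labelled with Cy5 in pairs 1 and 3 and with Cy3 in pairs 2 and 4, so the lower medians were those of the Cy5 mutants. The part of the dye in this split was not tested.

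**Figure D1:**
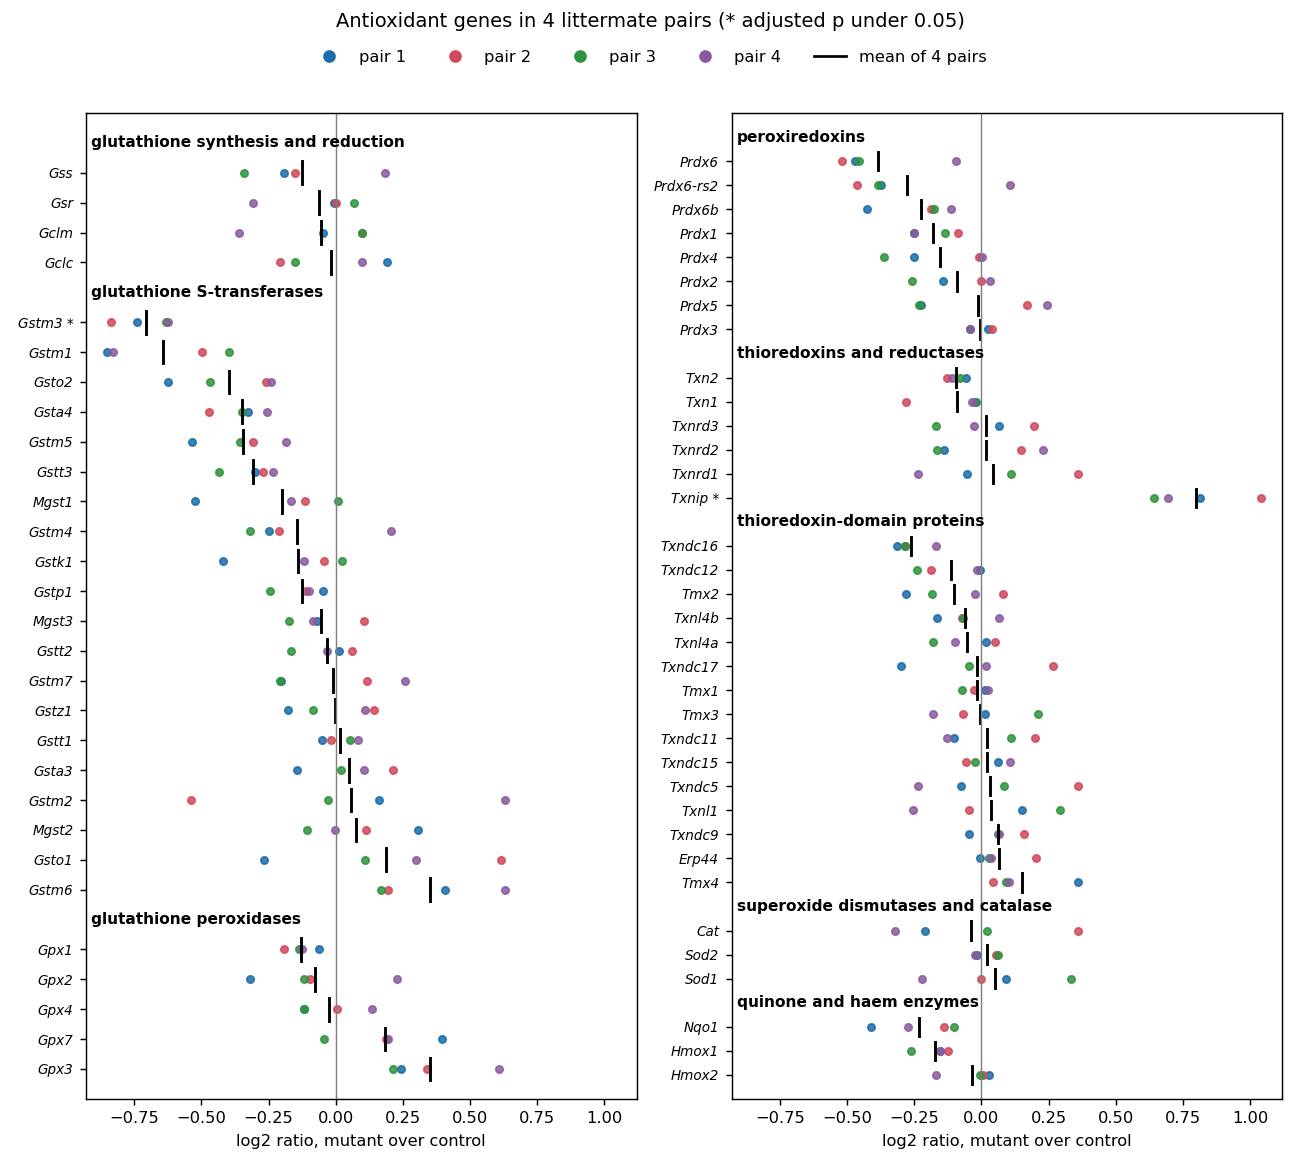
Mutant over control log2 ratio (x axis) of the 64 antioxidant genes tested (rows, by family), with a point for each of the 4 littermate pairs, a bar at their mean and a star at genes with an adjusted p under 0.05. Txnip at 0.80 and Gstm3 at -0.71 stand at the ends. All 8 peroxiredoxin means lie below 0, those of Prdx3 and Prdx5 close to it.

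The sequences before the transcription starts of Txnip and of 3 mu-class genes are shown because Txnip and Gstm3 were the called genes, and Gstm1 and Gstm5 the other mu-class genes below 0 in every pair. Each has 250 bases before and 50 bases after the start, 5′ to 3′ on the gene's strand, from RefSeq on build GRCm38.p6. They lie at chr3:96557707-96558006 (plus strand), chr3:107969125-107969424 (minus strand), chr3:108017769-108018068 (minus strand, 1 of 2 starts listed) and chr3:107895604-107895903 (plus strand). Capitals mark matches on either strand to 3 motifs. These are the core of the antioxidant response element that Nrf2 binds (TGACNNNGC), the carbohydrate response element that the glucose-sensing factors ChREBP and Mlx bind (CACGNG, any 5 bases, then CACGNG again), and the CCAAT box (CCAAT).
Txnip: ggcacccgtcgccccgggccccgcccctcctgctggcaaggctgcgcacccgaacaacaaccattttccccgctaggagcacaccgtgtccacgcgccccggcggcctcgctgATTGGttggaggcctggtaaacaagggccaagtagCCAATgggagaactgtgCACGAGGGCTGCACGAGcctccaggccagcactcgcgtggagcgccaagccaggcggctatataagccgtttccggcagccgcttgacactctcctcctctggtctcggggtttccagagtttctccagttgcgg
Gstm3: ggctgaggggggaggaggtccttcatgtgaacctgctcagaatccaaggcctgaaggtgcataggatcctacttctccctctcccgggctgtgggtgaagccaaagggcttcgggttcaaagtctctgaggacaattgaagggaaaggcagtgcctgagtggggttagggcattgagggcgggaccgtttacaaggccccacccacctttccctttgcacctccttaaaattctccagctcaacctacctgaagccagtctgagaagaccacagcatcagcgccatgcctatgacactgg
Gstm1: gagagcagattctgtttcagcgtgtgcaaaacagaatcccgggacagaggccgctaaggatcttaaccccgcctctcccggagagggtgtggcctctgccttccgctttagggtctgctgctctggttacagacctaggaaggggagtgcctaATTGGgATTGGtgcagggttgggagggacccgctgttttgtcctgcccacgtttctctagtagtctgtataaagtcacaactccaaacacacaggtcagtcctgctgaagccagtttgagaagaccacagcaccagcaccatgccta
Gstm5: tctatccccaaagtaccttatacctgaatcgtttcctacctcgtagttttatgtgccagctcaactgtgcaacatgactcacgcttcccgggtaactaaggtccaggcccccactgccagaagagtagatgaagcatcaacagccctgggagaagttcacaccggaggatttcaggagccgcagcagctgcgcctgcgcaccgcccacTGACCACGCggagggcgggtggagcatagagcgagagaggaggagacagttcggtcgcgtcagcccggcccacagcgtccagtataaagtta

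Txnip had 1 match to the carbohydrate response element, starting at base -85 from the start, and 2 CCAAT boxes. That element was matched in 1 of 53 antioxidant genes with a promoter sequence (1.89%) and in 15 of 27025 genes overall (0.0555%). The 1 antioxidant gene was Txnip itself, so this share was not read as different from that of all genes. The antioxidant response core was matched in 12 of the 53 genes (22.6%), against 14.0% of all genes, and CCAAT in 31 (58.5%), against 41.1%. All genes here means those with a promoter sequence, tested or not. A gene counted if any of its listed starts matched, so genes with more starts had more room for a match. Counted by promoter, 12.4% of all promoters held the core and 37.4% held CCAAT. Antioxidant promoters were not counted this way, and these differences were not tested. Gstm5 held the antioxidant response core at base -42. Gstm3 held none of the 3 motifs in this window, and the Gstm1 start shown held only CCAAT matches. A match describes letters and is not a measured binding site.

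Thioredoxin and its partners are described first. Txnip, an arrestin-fold protein that also limits glucose uptake, had log2 levels of 10.44, 10.36, 10.51 and 10.47 in mutants, against 9.63, 9.32, 9.87 and 9.78 in their control littermates. Every mutant lay above every control, and the mutants differed less among themselves (SD 0.07) than the controls (SD 0.24). The pair ratios were 0.82, 1.04, 0.64 and 0.69, with a mean of 0.80 ± 0.18 (95% interval 0.59 to 1.00), a 1.74-fold higher level (limma, adjusted p = 0.0221). This probe lies at chr3:96365147-96365206 on mm9. A second Txnip probe, at chr3:96363085-96363259, was dim, with a control channel above background on 2 of 4 arrays, and gave 0.15 ± 0.10 (limma over all probes, adjusted p = 0.662). Averaged over both probes, Txnip was 0.48 higher (adjusted p = 0.0332). Without pair 1 or pair 3 it was no longer called, at 0.75 (adjusted p = 0.122) and 0.84 (adjusted p = 0.0695).

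None of the other 5 genes of this family was called. Cytosolic thioredoxin Txn1 was -0.09 ± 0.13 and mitochondrial Txn2 was -0.09 ± 0.03, and both were below 0 in every pair. Pair 2 of Txn1 lay apart at -0.28, and without it the ratio was -0.03. The adjusted p-values were 0.807 for Txn1 and 0.750 for Txn2 (limma). The 95% interval of Txn2, -0.24 to 0.05, leaves room for a small change in either direction. The reductases Txnrd1, Txnrd2 and Txnrd3, which pass electrons from NADPH to thioredoxin, had ratios of 0.04, 0.02 and 0.02. Txnrd1 varied between pairs, from -0.24 in pair 4 to 0.36 in pair 2. Its 95% interval, which comes from the fit with a dye term and not from the SD over pairs, was -0.23 to 0.32.

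Among the 15 tested thioredoxin-domain proteins, many of which are oxidoreductases of the endoplasmic reticulum, none was called and the median ratio was -0.006. Txndc16, a protein of the endoplasmic reticulum, had the lowest mean at -0.26 ± 0.06, with pairs at -0.32, -0.28, -0.28 and -0.17. Its levels of 10.43, 10.58, 10.43 and 10.54 in mutants, against 10.74, 10.86, 10.71 and 10.71 in controls, did not overlap, yet its adjusted p was 0.183 (limma), and its second probe gave -0.07. Tmx4, a membrane-bound member, had the highest mean at 0.15 ± 0.14 and was above 0 in all pairs (limma, adjusted p = 0.643). Nme8, Txndc2 and Txndc8 did not pass the filter.

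**Figure D2:**
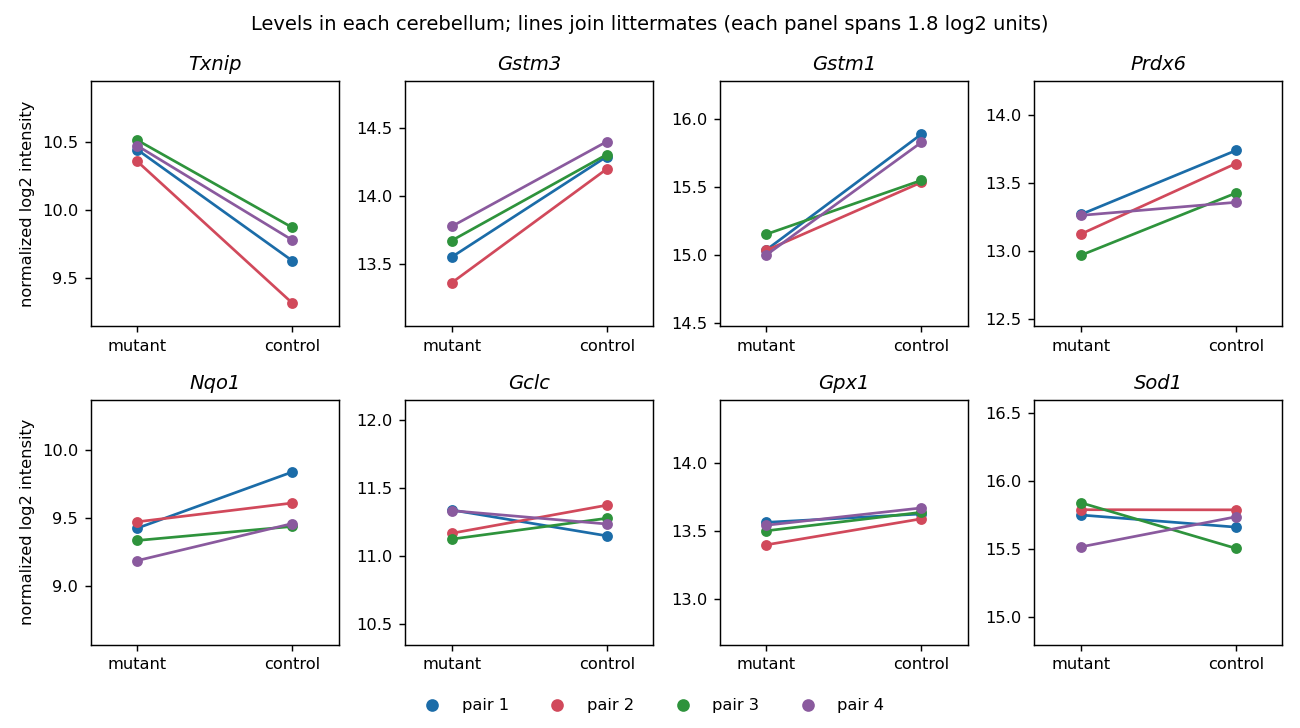
Normalized log2 intensity (y axis, 1.8 log2 units in every panel) of 8 antioxidant genes in each mutant (left) and control (right), with a line joining the littermates of a pair. Mutants and controls do not overlap for Txnip, Gstm3, Gstm1, Prdx6 and Gpx1, whereas the lines of Gclc and Sod1 cross. For Gpx1 the highest mutant (13.56) and the lowest control (13.59) are nearly equal. The share of all genes without overlap was not counted.

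Glutathione S-transferases, which join glutathione to electrophiles, held the lowest ratios. Of 23 genes, 20 were tested and their median ratio was -0.09. Of these, 14 were below 0, 7 of them in all pairs, and 1 (Gstm6) was above 0 in all pairs. Gstm3 had log2 levels of 13.55, 13.36, 13.67 and 13.78 in mutants, against 14.29, 14.20, 14.30 and 14.40 in controls. The highest mutant was below the lowest control. The pair ratios of -0.74, -0.84, -0.63 and -0.62 gave -0.71 ± 0.10 (95% interval -0.88 to -0.54), and the level fell by 38.8% (limma, adjusted p = 0.0184). The probe lies at chr3:107766730-107766789 on mm9. Without pair 1 or pair 3 Gstm3 was no longer called, at -0.68 (adjusted p = 0.124) and -0.73 (adjusted p = 0.0785).

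Gstm1, a mu-class enzyme abundant in astrocytes, was singled out after its values were seen. Its brighter probe had levels of 15.04, 15.04, 15.16 and 15.00 in mutants, against 15.89, 15.54, 15.55 and 15.83 in controls, with no overlap. The mutants were close to each other (SD 0.07), and the controls fell into 2 higher and 2 lower values. The ratio was -0.64 ± 0.23 and missed the threshold (limma, adjusted p = 0.0806). Its second probe had pair ratios of -0.85, -0.84, -0.69 and -0.56, with a mean of -0.73 ± 0.14, and passed in the fit over all probes (adjusted p = 0.0261). With the mean of both probes, Gstm1 was called at -0.69 (adjusted p = 0.0193).

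The 7 mu-class genes lie side by side on chromosome 3, where their probes run from 107701101 to 107843861 on mm9 in the order Gstm5, Gstm7, Gstm6, Gstm3, Gstm2, Gstm1, Gstm4. The ratios did not follow that order. Gstm5 was -0.35 ± 0.15 and below 0 in every pair, Gstm7 was -0.01 ± 0.23, and Gstm6 was 0.35 ± 0.22 and above 0 in every pair. The Gstm6 probe was dim, at mean levels of 7.18 in mutants and 6.83 in controls. It was still above background in both channels of all 4 arrays. From the scanner software's processed intensities Gstm6 was 0.71, also not called (limma, adjusted p = 0.187). After Gstm3 came Gstm2 at 0.06 ± 0.48, then Gstm1, and then Gstm4 at -0.14 ± 0.24. None of these but Gstm3 was called, with adjusted p-values of 0.125 for Gstm5 and 0.289 for Gstm6 (limma). Gstm2 split by pair, at 0.16, -0.54, -0.03 and 0.63. The choroid plexus medians given above were likewise lowest in pair 2 and highest in pair 4, and their part in the Gstm2 values was not tested. The family is similar in sequence, and the longest run of bases shared by 60-base probes of different mu-class genes was 10. The 2 probes of Gstm1 itself shared a run of only 7 bases. Runs shared between probes therefore cannot tell whether a probe also binds the transcript of a related gene. The values of the mu-class genes may thus not be independent of each other.

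**Figure D3:**
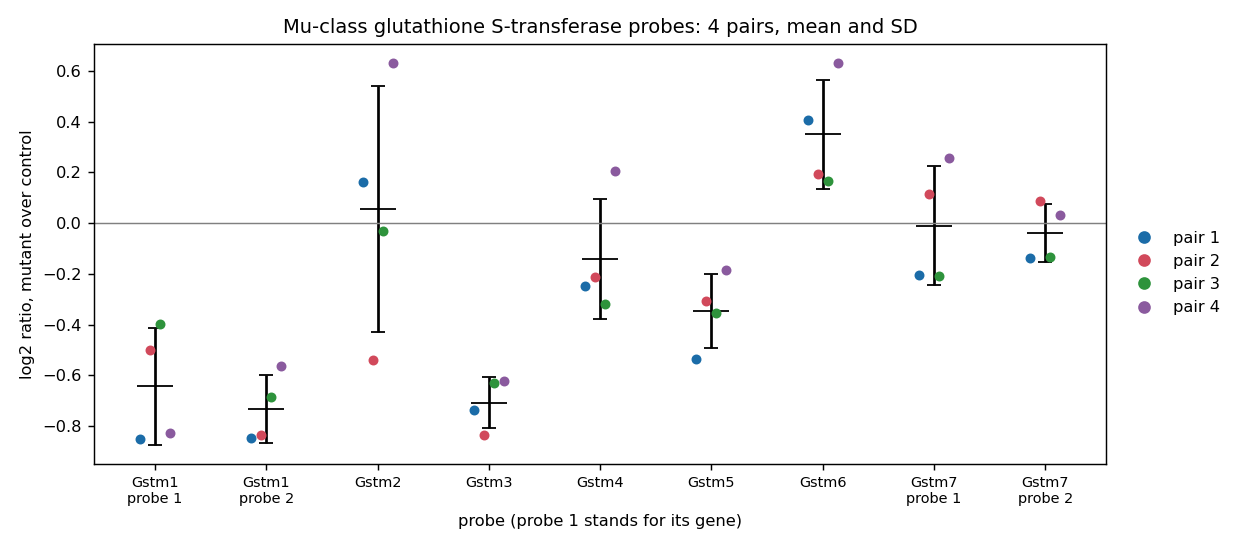
Mutant over control log2 ratio (y axis) of the 9 mu-class probes that passed the filter, with a point for each pair, a line at the mean and error bars of 1 SD. Both Gstm1 probes and the Gstm3 probe lie between -0.85 and -0.40 in every pair. The Gstm6 probe, which was dim, lies above 0 in every pair.

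Outside the mu class, the 13 tested transferases had a median of -0.06, and none was called. Gsto2, an omega-class enzyme that reduces dehydroascorbate, was -0.40 ± 0.18 with pairs at -0.62, -0.26, -0.47 and -0.24 (limma, adjusted p = 0.0706). Gsta4, which conjugates the lipid peroxidation product 4-hydroxynonenal, was -0.35 ± 0.09 (adjusted p = 0.121). The theta-class Gstt3 was -0.31 ± 0.09 (adjusted p = 0.136). All 3 were below 0 in every pair, and all 3 were chosen for mention after their values were seen. Gstp1, the pi-class enzyme, was -0.13 ± 0.08. The omega-class Gsto1 was 0.19 ± 0.37, with pair 1 at -0.27 and pair 2 at 0.61. Gsta1, Gsta2 and Gstt4 did not pass the filter.

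Glutathione synthesis and recycling were measured with ratios close to 0. The catalytic subunit Gclc had levels of 11.34, 11.17, 11.13 and 11.34 in mutants, against 11.15, 11.38, 11.28 and 11.24 in controls, and the groups overlapped. Its ratio was -0.02 ± 0.19 (95% interval -0.24 to 0.21). The modifier subunit Gclm was -0.05 ± 0.22 (interval -0.29 to 0.18), Gss was -0.13 ± 0.22 (interval -0.33 to 0.07) and Gsr was -0.06 ± 0.17 (interval -0.25 to 0.13). All 4 means were below 0, none in all pairs, and the smallest adjusted p was 0.762, for Gss (limma). For Gsr this sign held for the brightest probe only, as its other probes that passed the filter had means above 0. All 4 intervals lay between -0.33 and 0.21.

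Glutathione peroxidases did not share a direction. Of 7 genes, 5 were tested and Gpx5 and Gpx6 did not pass the filter. Gpx1, the cytosolic enzyme, was -0.13 ± 0.05 and below 0 in every pair (limma, adjusted p = 0.620). Gpx4, which reduces lipid hydroperoxides in membranes, was -0.02 ± 0.12. Gpx3, the secreted form found in plasma, had pair ratios of 0.24, 0.34, 0.21 and 0.61. Its levels were 7.83, 7.53, 7.60 and 8.05 in mutants, against 7.59, 7.19, 7.39 and 7.44 in controls, and 1 mutant (pair 2) lay below the highest control. Its mean was 0.35 ± 0.18 (adjusted p = 0.141).

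All 8 peroxiredoxins had means below 0, with a median of -0.17, and 3 of them were below 0 in every pair. None was called. Their pair medians were -0.25, -0.05, -0.24 and -0.02, again lower in pairs 1 and 3, where the mutant was labelled with Cy5. Prdx6, which uses glutathione to reduce peroxides and also has phospholipase activity, had levels of 13.27, 13.12, 12.97 and 13.26 in mutants, against 13.74, 13.64, 13.42 and 13.36 in controls, and the groups did not overlap. Pairs 1 to 3 lay at -0.47, -0.52 and -0.46 and pair 4 at -0.10. The mean was -0.39 ± 0.20 (limma, adjusted p = 0.180), and without pair 4 Prdx6 was called at -0.49 (adjusted p = 0.0353). Its other probes that passed the filter gave -0.33 ± 0.32 and -0.25 ± 0.35, again with pair 4 the highest. The related sequences Prdx6b and Prdx6-rs2 were -0.23 ± 0.14 and -0.28 ± 0.26. Their probes shared no run longer than 9 bases with a Prdx6 probe, but the sequences are close relatives, so their values may not be independent of Prdx6. Cytosolic Prdx1 was -0.18 ± 0.08, below 0 in every pair, and Prdx4 of the endoplasmic reticulum was -0.16 ± 0.18. For Prdx4 the sign held for the brightest probe only, as its second probe gave 0.048. Cytosolic Prdx2 was -0.09 ± 0.13, and Prdx5 and the mitochondrial Prdx3 were at -0.01 ± 0.25 and -0.005 ± 0.04. Prdx5 and Prdx3 were thus close to 0, and both changed sign in some of the alternatives given below.

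The superoxide dismutases, which turn superoxide into hydrogen peroxide, and catalase, which breaks it down, showed no called change. Cytosolic Sod1 had a ratio of 0.05 ± 0.23 (95% interval -0.14 to 0.24), mitochondrial Sod2 0.02 ± 0.05 (interval -0.13 to 0.17) and Cat -0.04 ± 0.30 (interval -0.35 to 0.27). Sod3, the extracellular enzyme, was above background on 3 of 4 arrays in both channels and was not tested. Nqo1 and Hmox1, standard targets of Nrf2, were below 0 in every pair, at -0.23 ± 0.14 (limma, adjusted p = 0.415) and -0.17 ± 0.06 (adjusted p = 0.429). Nqo1 levels were 9.43, 9.48, 9.34 and 9.19 in mutants, against 9.84, 9.61, 9.44 and 9.46 in controls, and overlapped. Hmox1 levels were 8.54, 8.56, 8.45 and 8.41 in mutants, against 8.70, 8.69, 8.71 and 8.56 in controls, so the highest mutant and the lowest control were nearly equal. The constitutive Hmox2 was -0.04 ± 0.09.

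**Figure D4:**
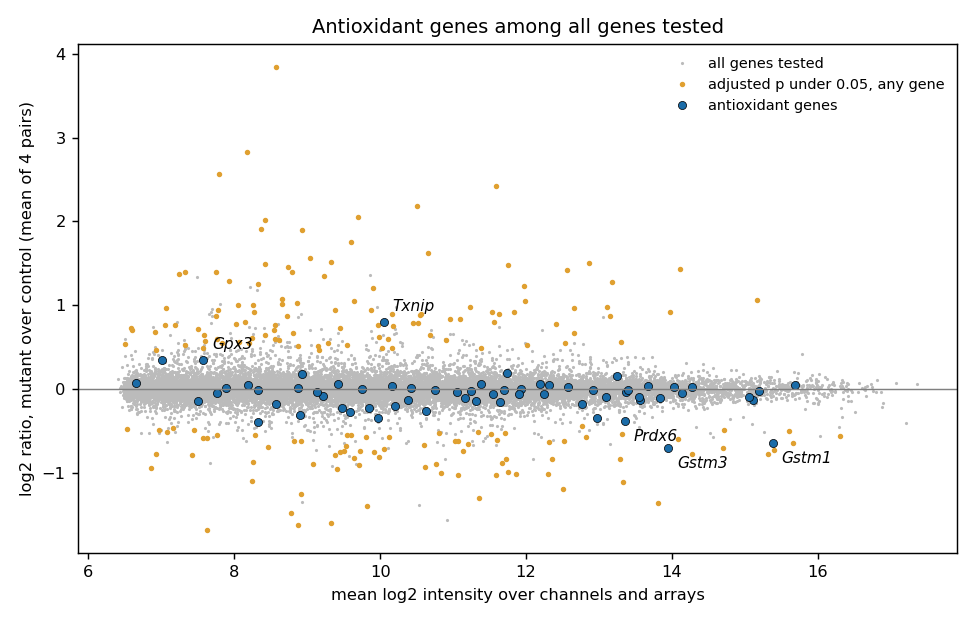
Mutant over control log2 ratio (y axis, mean of 4 pairs) against mean log2 intensity (x axis) for all 18025 genes tested, with called genes in orange and the 64 antioxidant genes in blue. Antioxidant genes other than Txnip, Gstm3 and Gstm1 lie between -0.40 and 0.35.

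Neighbouring pathways were read from 5 gene lists. None of 21 genes of glutathione turnover and supply was called, and the smallest p was that of Cth, which makes cysteine from cystathionine, at 0.46 ± 0.20 (limma, adjusted p = 0.0744). None of 9 glutaredoxins and related reductases was called, and the smallest p was that of the methionine sulfoxide reductase Msrb1, at -0.13 ± 0.16. Of 27 other Nrf2 targets and regulators, none was called, and Cbr1, a carbonyl reductase, had the smallest p at 0.34 ± 0.20 (adjusted p = 0.170). The medians of these 3 lists were 0.002, -0.02 and -0.001, against 0.002 over all genes. Of 16 genes of NADPH supply, 1 was called higher, beside 0.588% of all genes. It was Aldh1l1, a folate enzyme that marks astrocytes, at 1.504 ± 0.234 (limma, adjusted p = 0.00529). Of 21 selenoprotein genes, 1 was called lower, beside 0.444% of all genes. It was the thyroid hormone deiodinase Dio2 of astrocytes, at -0.89 ± 0.14 (limma, adjusted p = 0.0137).

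Astroglial markers changed in the same samples. Of 20 mature astroglia markers, 7 (Dio2 among them) were called lower and 2 (Aldh1l1 and Gfap) higher. Over all genes tested, 0.444% were called lower and 0.588% higher. Aldh1l1 and Dio2 are the same genes as those called in the NADPH and selenoprotein lists. The median of the 20 markers was -0.44, and their mean level was 12.78 to 12.88 in mutants, against 13.09 to 13.14 in controls. Of these markers, 17 were below 0 and 3 above 0. Slc1a2, the main glutamate transporter of astrocytes, was -0.57 ± 0.11, and the glial calcium-binding protein S100b was -0.56 ± 0.09. Gfap and Aldh1l1 went the other way, at 1.475 ± 0.347 and 1.504 ± 0.234. Of 12 Bergmann glia markers, 3 were called lower and 2 higher, with a median of -0.40. The lower genes were Npy at -1.60, Dao at -1.39 and Gria4 at -0.44. The higher genes were Tnc at 2.19, the largest change in this list, and Fabp7 at 1.06. None of 17 oligodendrocyte markers was called, but 16 were below 0, with a median of -0.25. The pair medians of these were -0.11, -0.19, -0.57 and 0.04. Microglia had a median of 0.02. Endothelium and mural cells had a median of -0.08, and all 13 of their markers were below 0, with none called. The part of these marker levels in the values of Gstm3, Gstm1, Gstm5 and Prdx6 was not tested.

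**Figure D5:**
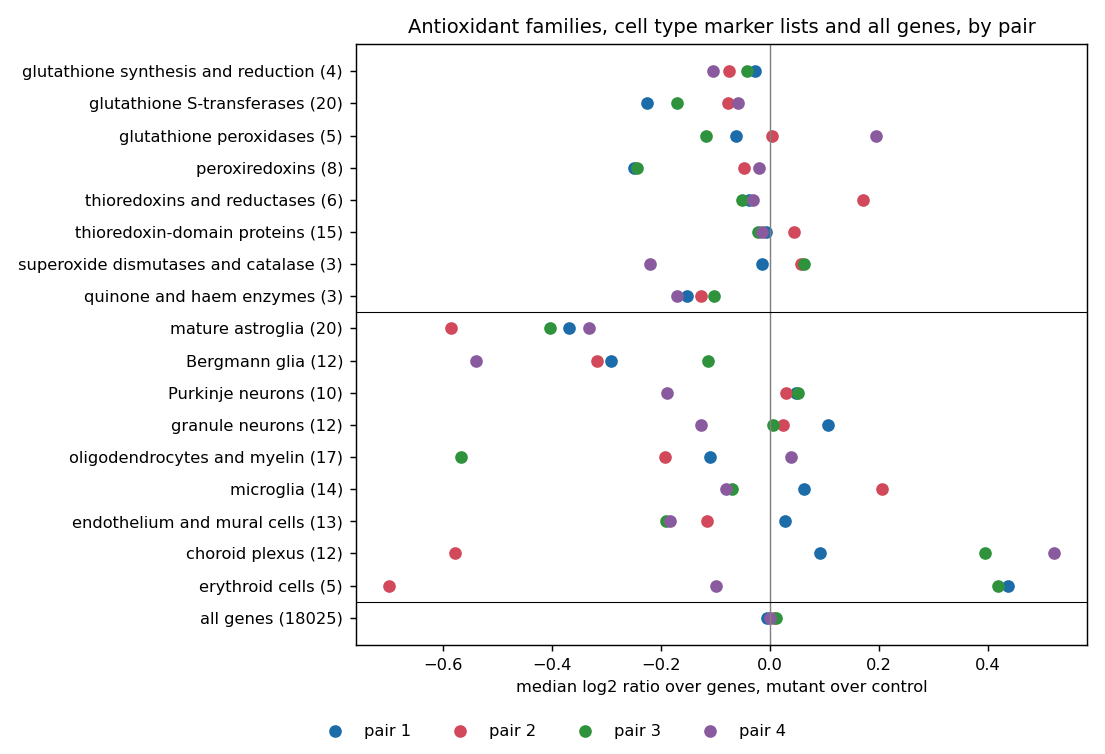
Median mutant over control log2 ratio (x axis) in each of the 4 pairs for 8 antioxidant families, 9 cell type marker lists and all genes (rows, with the number of genes tested). Mature astroglia lie between -0.58 and -0.33 in all pairs, glutathione S-transferases between -0.23 and -0.06, and choroid plexus and erythroid lists spread to both sides of 0.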

How the data were processed

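The deposited scanner output gives, for each dye, linear intensities of the spot and its surroundings from Agilent Feature Extraction 10.5.1.1, with probe positions on mm9, per the file headers. That software also wrote processed intensities and a log10 ratio (Cy5 to Cy3), per the file headers. The series-level values deposited by the authors equal this log10 ratio within 4.84e-06, with its sign turned on replicates 2 and 4. RNA input was 500 ng a channel, per the labels. All arrays shared 1 slide and 1 scan.

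Values were recomputed with limma 3.58.1 (R 4.3.3, data.table version 1.17.8 and jsonlite 2.0.0). Background was corrected by normexp (offset 50), with spots carrying an outlier flag (143 to 248 per array) left out, and ratios were normalized by loess within arrays. Spots of a probe were averaged, and the brightest probe that passed the background filter, with values on at least 3 arrays, stood for a gene. Symbols came from the transcript accession for 24844 probes and from the file for 16330, so older names such as Txndc13 (Tmx4) were updated. The fit had a dye and a genotype term, 2 residual and 3.37 prior degrees of freedom, and Benjamini-Hochberg adjustment over 18025 genes, of which 28 lacked 1 array. Each ratio is within 1 littermate pair. Deviations of littermates on 1 array correlated at 0.393 to 0.704, and across arrays at most at 0.315; littermates also share spots. An exact sign-flip test of 4 pairs cannot go below p = 0.125. Levels are log2 intensities after quantile normalization of mean brightness. The code was tested on simulated data. Members, lists, tests and alternatives were chosen with earlier results of these data known. Named genes were the called ones, each family's smallest p, highest and lowest ratio, and a short list of central enzymes; further genes are said to be chosen after their values were seen, and these include the mu-class genes, Txn1, Txnrd2, Txnrd3, Gstp1, Gsto1 and the peroxiredoxins. The number of arrays limits the precision.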

Additional observations from a re-analysis of the deposited data

Results flagged for a closer look

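In 3 of 41 named genes checked, 1 pair lay apart from the others, a gap that chance gives in about 1 in 20 sets of 4 values. The pair 4 ratio of Prdx6 was -0.10, whereas its other pairs lay between -0.52 and -0.46. The pair 4 ratio of the related Prdx6-rs2 was 0.105, whereas its other pairs lay between -0.46 and -0.37. Both further Prdx6 probes that passed the filter were also highest in pair 4. The pair 2 ratio of Txn1 was -0.28, whereas its other pairs lay between -0.035 and -0.021.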

How the results depend on the processing

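The median ratio of the antioxidant genes stayed between -0.06 and -0.01 in all 15 alternatives. The count of higher genes was 1 (Txnip) in each alternative except without pair 1 and without pair 3, where it was 0, so it ranged from 0 to 1 when pairs were left out. The count of lower genes was 2 (Gstm1 and Gstm3) with the mean over probes, with no dye term and with no replicate block (8 separate channels), and it ranged from 0 to 2 when pairs were left out. The lower genes were Gstm1 and Gstm3 without pair 2, and Gstm3 and Prdx6 without pair 4. None was called lower without pair 1 or without pair 3. Over all genes, leaving pair 1 out gave 41 higher and 11 lower, and leaving pair 4 out gave 216 and 121, against 106 and 80. With outlier flags applied after the background fit, 50 and 32 were called. No replicate block gave 97 and 66, and the ratios themselves were the same.

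Ratios near 0 changed sign. With flags after the background fit, Cat was 0.038, Gclc 0.037, Gstm7 0.036, Prdx3 0.036 and Prdx5 0.002. With no background subtraction Gstm7 was 0.007. With the mean over probes Gsr was 0.03 and Txnrd2 -0.025. Txnrd3 was 0 with processed intensities and with the series-level values, and -0.001 with median centring. Gstm6 kept its sign at 0.714 with processed intensities and with the series-level values, against 0.35. Other probes, an alternative added after seeing the data, gave 0.086 and 0.101 for Gsr, 0.048 for Prdx4, -0.009 for Sod1, and -0.08 and -0.013 for Txnrd2. When pairs were left out, the ranges were -0.21 to 0.13 for Cat, -0.104 to 0.068 for Gclc, -0.167 to 0.061 for Gclm, -0.056 to 0.009 for Gpx4, -0.138 to 0.016 for Gsr, -0.24 to 0.35 for Gstm2, -0.045 to 0.026 for Gstm7, -0.080 to 0.008 for Hmox2, -0.025 to 0.015 for Prdx3, -0.029 to 0.008 for Prdx5, -0.010 to 0.112 for Sod1, 0 to 0.04 for Sod2, -0.10 to 0.19 for Txnrd1, -0.004 to 0.038 for Txnrd2 and -0.042 to 0.076 for Txnrd3. The cause was not tested. No sign change concerned a called gene. With 4 arrays, small ratios were not resolved.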
